A study of Arabidopsis thaliana with 16 samples.

Results

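The 8 ACS genes described here (ACS2, ACS4, ACS5, ACS6, ACS7, ACS8, ACS9 and ACS11) encode 1-aminocyclopropane-1-carboxylate synthases of Arabidopsis thaliana, and their WRKY peaks were taken from 8 chromatin immunoprecipitation libraries by the gene identifier that the authors gave each peak as its nearest promoter. Of the 8 genes, 4 had at least 1 peak, among 3609 genes with any peak, and together they held 40 of the 14333 peaks, at 8 separate sites. Chromatin came from 12-day-old seedlings of accession Col-0, either wild type (WT) or a wrky18 wrky40 wrky33 triple mutant (wrky18/40/33), untreated (0 h) or given 1 µM flg22 for 2 h in exchanged medium, and each of the 4 groups had 2 biological replicates. Each precipitation used chromatin from 2 g of seedlings, so all tissues were mixed. The serum recognised WRKY proteins as a family, so a call in the mutant can come from a WRKY protein that it still has. No group was kept for 2 h in exchanged medium without flg22, so flg22 cannot be told apart from time or handling.

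ACS enzymes turn S-adenosylmethionine into ACC, usually the rate-limiting step of ethylene synthesis, and ACC oxidases turn ACC into ethylene. Perception of flg22, a peptide of bacterial flagellin, sets off MAP kinase signalling and a burst of ethylene. MPK3 and MPK6 phosphorylate and so stabilise ACS2 and ACS6, and WRKY33 has been reported to bind the promoters of these same genes. WRKY proteins bind the W-box DNA element. No genome sequence was used here, so W-boxes at the sites were not searched.

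The lists held 1372 to 2213 peaks per library, with 1992 to 2213 at 2 h and 1372 to 1720 at 0 h. The labels give 10000000 to 20000000 reads per sample, and the reads behind each peak are unknown. Replicate 1 had the wider peaks, with list medians of 525 to 564 bp, against 354 to 385 bp for replicate 2. In the untreated WT replicate 1 list, 136 of 1508 region numbers had no row, and a site missing from that list can be an absent row. Peaks are described by score percentile, the rank of the authors' ChIP score within its own list, where 100 is the top peak. Percentiles from lists of different length are set side by side as descriptions, were not tested, and show no change in binding by themselves. Distances are the deposited ones, from the peak centre to the transcription start site (TSS), negative upstream, and coordinates are on TAIR10.

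WRKY peaks lay at ACS6, ACS8, ACS2 and ACS7, and at none of ACS4, ACS5, ACS9 and ACS11. Every library called ACS6 and ACS8, while 7 called ACS2 and 3 called ACS7. Calls in all 8 libraries were found for 13.4% of the 3609 genes with any peak and for 12.8% of the 3886 merged regions. The 4 ACS genes without a peak are not among these 3609. The number of ACS genes called in both libraries of a group was 3 in WT at 0 h (37.5% of the 8), 4 in WT at 2 h (50%), 2 in the untreated mutant (25%) and 3 in the treated mutant (37.5%). Of 27444 nuclear protein-coding genes, 2.83%, 3.87%, 3.15% and 3.83% were called in both libraries of these groups in the same order. These counts are by gene. They include ACS2 in WT at both times and in the treated mutant, although no site of ACS2 was called in both libraries of any group. Only ACS6 and ACS8 had a site called in both libraries of every group. A peak goes to its nearest promoter however far away, so a gene next to a long stretch without genes can collect more peaks, and the members were chosen with earlier results of these data known.

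Peaks at the ACS genes lay both near and far from the TSS, with 4 of the 8 sites beyond 1500 bp. Of the 40 ACS peaks, 42.5% were annotated as intergenic, 27.5% as promoter, 20.0% as transcript end and 10.0% as exon. Over all 14333 peaks these shares were 15.5%, 64.6%, 14.2% and 1.44%. A distance over 1500 bp was found for 62.5% of ACS peaks and for 19.9% of all peaks. The 40 peaks repeat 8 sites over the libraries, and the far-upstream sites of ACS6 and ACS8, called everywhere, weigh most in these shares, which were not tested. ACS6 had 3 separate sites and was 1 of 39 genes (1.08% of 3609) with 3 or more. ACS2 and ACS7 had 2 sites and ACS8 had 1.

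**Figure D1:**
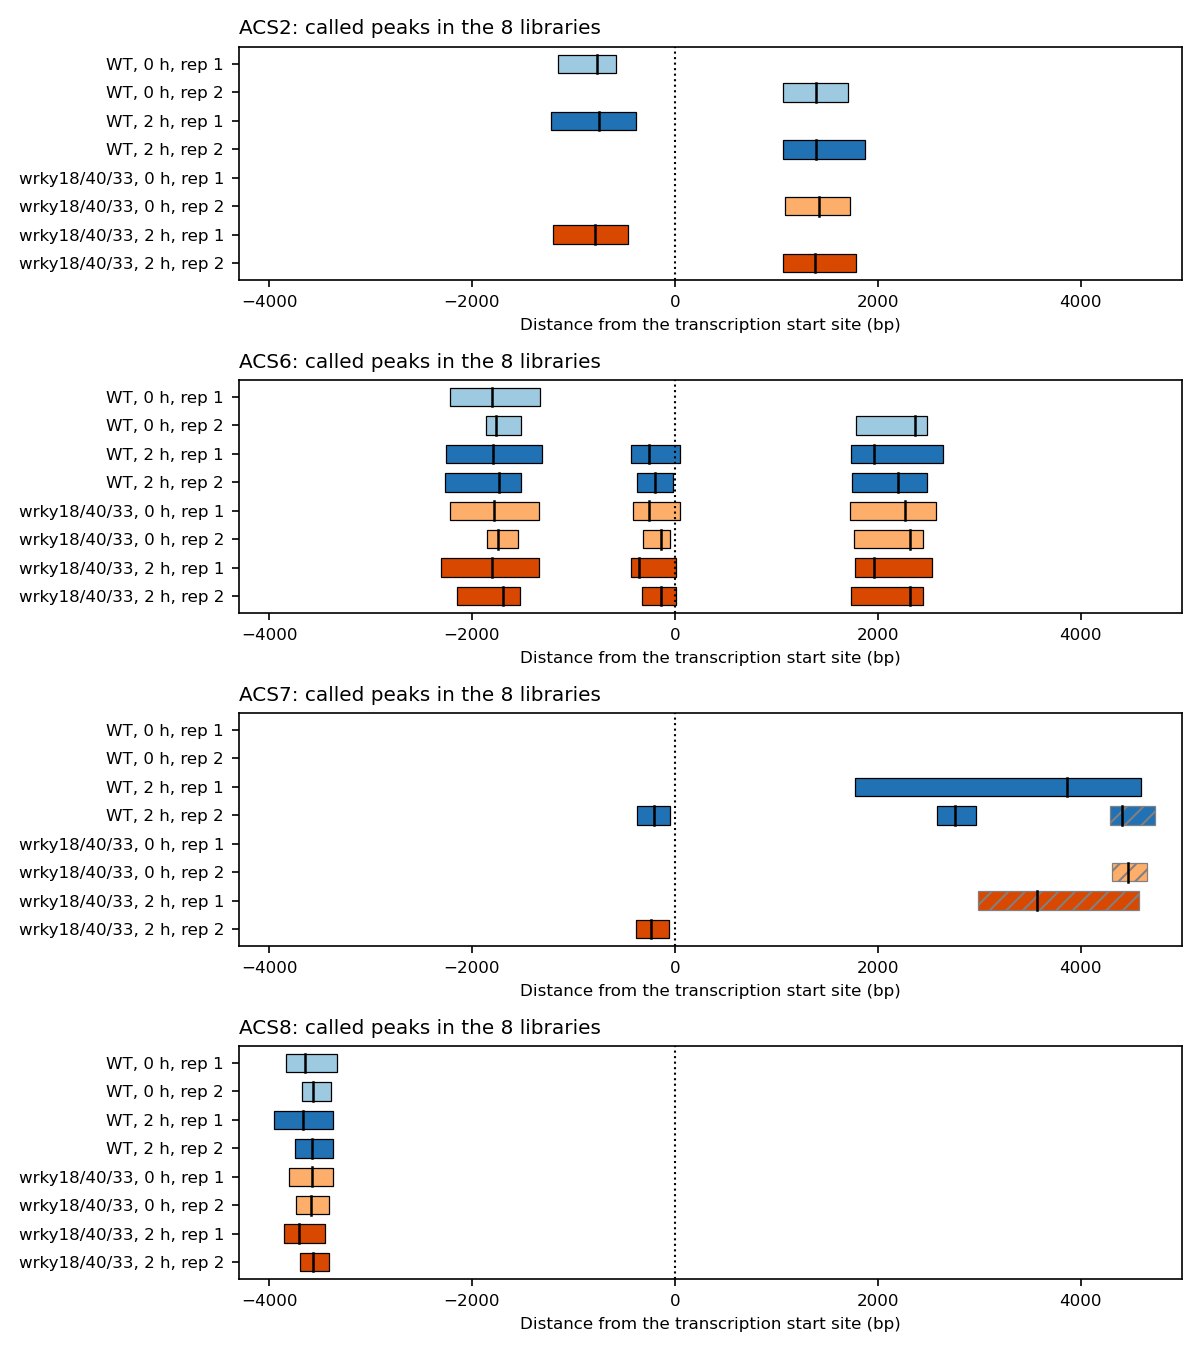
Called peaks at ACS2, ACS6, ACS7 and ACS8 in the 8 libraries, as distance in bp from the TSS of the first listed transcript (dotted line, negative upstream). Each bar is 1 peak coloured by group, the black tick is its maximum, and hatched bars are peaks at the same region that the authors assigned to the next gene, AT4G26210; ACS6 has 3 columns of peaks, with the middle one absent from both WT 0 h libraries.

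ACS6 (AT4G11280), which encodes an ACC synthase phosphorylated by MPK3 and MPK6, carried the ACS peak of highest ChIP score percentile. Its far-upstream site on chromosome 4, 6861790 to 6862785, was called in all 8 libraries at -1688 to -1889 bp and was annotated as intergenic. In WT the score percentile was 95.4 and 39.0 at 0 h and 99.9 and 88.5 at 2 h in replicates 1 and 2. In mutant seedlings it was 96.6 and 42.4 untreated and 98.9 and 72.5 after flg22. Replicate 1 was thus the higher library in every group, and in WT at 2 h the site ranked 3 of 1992 peaks in that replicate. The lowest value, in WT 0 h replicate 2, was rank 887 of 1466. Another deposited score, the ef score, whose meaning is not stated, ordered the ACS sites differently in some libraries. In WT 2 h replicate 1 it was 5.89 at this site and 8.58 at the ACS6 promoter site. In WT 2 h replicate 2 this site had the highest ef score of the ACS sites, at 18.9.

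Width and maximum at the far-upstream ACS6 site differed between replicates. Replicate 1 peaks spanned 878 to 966 bp and replicate 2 peaks 303 to 751 bp, ranges that do not overlap. In replicate 2 the peak spanned 353 bp in WT and 303 bp in the mutant at 0 h, near the list medians of 354 and 355 bp. At 2 h it spanned 751 and 629 bp, 1.95 and 1.73 times the list medians. In replicate 1 it was 1.62 to 1.84 times the list median in all 4 libraries. The peak was wider at 2 h than at 0 h in all 4 same-numbered pairs, by 59 and 398 bp in WT and by 88 and 326 bp in the mutant. Of the 496 regions called in all 8 libraries, 21.8% were wider in all 4 pairs. The maxima lay between 6862294 and 6862310 in replicate 1 and between 6862337 and 6862405 in replicate 2.

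The promoter site of ACS6 was called in both mutant libraries and neither WT library at 0 h. It lay on chromosome 4 at 6863667 to 6864150, at -154 to -211 bp, and was annotated as promoter. Neither WT library at 0 h had a peak there, and the other 6 libraries all did. In WT at 2 h its percentile was 42.8 and 61.2 in replicates 1 and 2. Mutant values were 13.9 and 19.2 untreated and 15.0 and 33.3 after flg22. The mutant peaks thus ranked in the lower part of their lists at both times, and the WT 2 h peaks nearer the middle. The site met the rule for a gain in WT (a call in both flg22 libraries and in neither untreated one), as did 7.89% of the 3221 regions called in any of those 4 libraries. It also met the rule for a call in the mutant alone at 0 h, as did 1.57% of 2489 regions. The absence in WT at 0 h includes the list with absent rows, but replicate 2, whose numbering had no gap, also lacked the site. With only peaks at or above the median score of their list, WT 2 h replicate 2 alone called it. With equal numbers of peaks in every list calls stayed in both treated WT libraries and in 1 untreated mutant library. The call in the mutant alone at 0 h was then lost, and the site met the rule for a call in WT alone at 2 h, the opposite direction. The share of all regions that do so at equal list lengths was not computed. With 2 libraries against 2 the smallest exact p is 0.33, so neither difference can pass a test.

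The transcript-end site of ACS6, on chromosome 4 at 6865823 to 6866737, was called in 7 libraries at 2096 to 2187 bp downstream of the TSS. The library without it was WT 0 h replicate 1, the list with absent rows. In WT its percentile was 53.8 at 0 h in replicate 2, and 53.8 and 56.3 at 2 h in replicates 1 and 2. Mutant percentiles were 2.14 and 55.3 untreated and 23.7 and 58.7 after flg22. Replicate 2 was near the middle of its list in all 4 groups, and both mutant replicate 1 libraries were lower. Peaks there were wide, at 683 to 907 bp, and 1.44 to 2.00 times the median of their lists. A gap of 882 bp separated the far-upstream and promoter regions, and 1673 bp the promoter and transcript-end regions.

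ACS8 (AT4G37770) encodes an ACC synthase of the group whose stability depends on ETO1-type proteins. Its far-upstream site on chromosome 4, 17748133 to 17748753, was called in all 8 libraries at -3532 to -3659 bp, the most distant upstream site of the ACS genes. Percentiles in WT were 10.2 and 32.5 untreated and 66.6 and 89.5 after flg22. Those in the mutant were 2.14 and 32.7 untreated and 47.2 and 12.6 after flg22. Both WT libraries at 2 h stood above both at 0 h in this rank, while the mutant libraries overlapped between times. The ef score did not show this order. In WT it was 4.62 and 9.08 untreated and 4.62 and 8.56 after flg22. Mutant ef scores were 3.13 and 4.12 untreated and 4.35 and 4.63 after flg22. Neither score was tested, and the share of all genes with this order of percentiles was not computed. The maxima of all 8 peaks lay within 138 bp of each other. From 0 h to 2 h the peak was wider in both WT pairs, by 81 and 83 bp, and narrower in both mutant pairs, by 26 and 38 bp; 4.64% of 496 regions called everywhere had this pattern and 3.63% its opposite. With only peaks at or above the median score of their list, both WT libraries at 2 h called ACS8 and the other 6 did not. The gene then met the rule for a gain in WT and for a call in WT alone at 2 h. The peak of mutant 2 h replicate 1, at percentile 47.2, fell just under that cut. The share of all genes that meet the rule with this filter was not computed. The site lies outside a window reaching 2000 bp ahead of the TSS and 500 bp past it, and with that window ACS8 had no peak. The next gene, AT4G37780 (MYB87, a MYB transcription factor), had a peak of its own in all 8 libraries, on chromosome 4 at 17757462 to 17758000, with percentiles from 61.5 to 94.6.

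**Figure D2:**
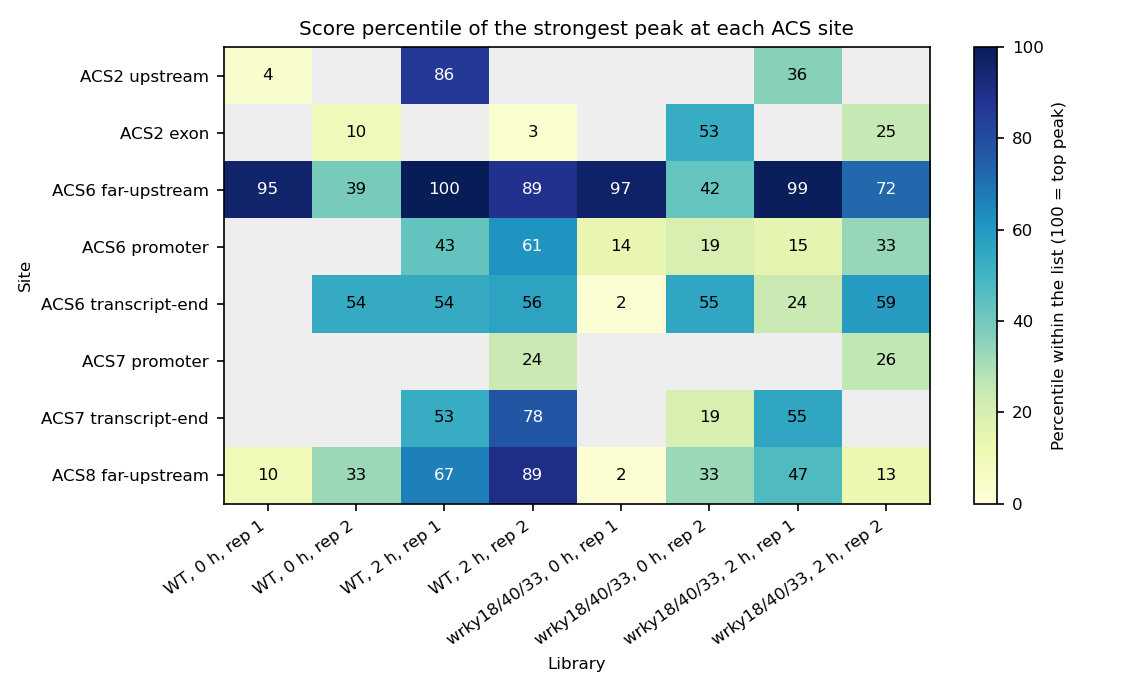
Score percentile within its list (100 is the top peak) of the strongest peak in each ACS region, in the 8 libraries; grey cells have no call. The far-upstream site of ACS6 is filled in every column and reaches 99.9, while the ACS2 sites fill columns of replicate 1 or of replicate 2, never the same library; at the ACS7 transcript-end site the mutant values belong to peaks assigned to AT4G26210.

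At ACS2 (AT1G01480), the other ACC synthase phosphorylated by MPK3 and MPK6, the 2 replicates called different places. The upstream site on chromosome 1, 174561 to 175395, at -804 to -868 bp, was called in 3 libraries, all of replicate 1. Its percentile was 3.79 in untreated WT, 85.8 in treated WT and 36.3 in the treated mutant, and the untreated mutant had no call. The exon site, 176844 to 177654, in exon 3 of 3 of the transcript AT1G01480.2, was called in all 4 replicate 2 libraries and in no replicate 1 library. Its WT percentiles were 9.72 untreated and 3.38 treated, and its mutant percentiles 53.4 and 25.3. No library held both sites, and a gap of 1449 bp separated them. Over all regions, 4.09% were called in all 4 replicate 2 libraries and no replicate 1 library.

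So the 7 calls of ACS2 counted as 1 gene are calls of different sites, and no site of ACS2 was called in both libraries of any group. The exon peaks were 636 to 811 bp wide, 1.80 to 2.11 times the median of their lists. The upstream peaks were 575, 835 and 736 bp wide in untreated WT, treated WT and the treated mutant. A neighbouring region on chromosome 1, 173082 to 174038, was called in all 8 libraries with percentiles from 18.7 to 95.1, and lay 523 bp upstream of the ACS2 upstream region. The authors assigned it to AT1G01471, so it is not counted for ACS2.

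ACS7 (AT4G26200) encodes an ACC synthase whose short C-terminus lacks the phosphorylation sites of ACS2 and ACS6. Both flg22-treated WT libraries called it, no untreated library did, and of the treated mutant libraries replicate 2 did. As a gene it met the rule for a gain in WT, as did 7.85% of 2993 genes called in any of those 4 libraries. Its promoter site, on chromosome 4 at 13274924 to 13275264, was called in replicate 2 at 2 h of both genotypes, at -207 bp with a percentile of 23.6 in WT and at -220 bp with 26.1 in the mutant. The maxima of these peaks were 29 bp apart, and the other 6 libraries had no call there.

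The transcript-end region of ACS7 held peaks that differed in shape between libraries. In WT 2 h replicate 1 it was a peak of 2818 bp, the widest of the 1992 in its list, with a percentile of 53.2. That peak was centred 3188 bp downstream of the TSS and was annotated as intergenic. WT 2 h replicate 2 had a peak of 387 bp at 2780 bp downstream of the TSS, with a percentile of 77.7. This was the only peak of the region annotated as transcript end, and the region is named after it. The maxima of these peaks were 1099 bp apart. WT 2 h replicate 2 had another peak, of 445 bp (percentile 11.3), that the authors assigned to the next gene, AT4G26210, and with it the merged region ran from 13277087 to 13280039 on chromosome 4. In the mutant, replicate 1 at 2 h had a peak of 1591 bp inside it (percentile 55.4) and replicate 2 at 0 h a peak of 347 bp (19.2), both also assigned to AT4G26210. Counting only peaks assigned to ACS7, a choice made after seeing the data, the region had a call in each treated WT library and in no mutant library. With peaks cut to 150 bp around their maximum the ACS7 transcript-end region no longer met the rule for a gain, and with the TSS window ACS7 did not meet it either.

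For ACS4, ACS5, ACS9 and ACS11 no library had a peak. ACS5 and ACS9 are the genes behind the ethylene-overproducing eto2 and eto3 alleles. Among the protein-coding genes directly beside these 4, MYB84 next to ACS9 was called in 4 libraries and MYB68 next to ACS5 in 2. The neighbours of ACS4 and ACS11 had no peak. An absent call says that no peak passed the authors' threshold in these lists, at a depth not analysed here.

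Counted per library, 4 and 4 ACS genes had calls in treated WT, 3 and 3 in untreated WT, 3 and 4 in the treated mutant, and 2 and 3 in the untreated mutant, in replicates 1 and 2. The mean was 3.75 ± 0.50 with flg22 and 2.75 ± 0.50 without (n = 4 libraries each, SD; exact two-sided permutation p = 0.114, Benjamini-Hochberg adjusted p = 0.229 over 4 tests). ACS genes were more numerous at 2 h in each of the 4 same-numbered pairs, by 1 each, and with signs permuted within pairs as a replicate block the exact p was 0.125, the smallest possible. Without mutant 2 h replicate 1, the 2 h library with fewest ACS genes, the difference was 1.25 (exact permutation p = 0.0286, the smallest possible, not adjusted). With any other library left out the exact permutation p was 0.114 to 0.143. ACS peaks numbered 3 and 4 in untreated WT, 6 and 7 in treated WT, 4 and 5 in the untreated mutant, and 5 and 6 in the treated mutant. Their mean was 6.00 ± 0.82 with flg22 and 4.00 ± 0.82 without (n = 4 libraries each, SD; exact permutation p = 0.0571, adjusted p = 0.229), a count added after the data were seen. The 2 h lists were also longer; cut to equal numbers of peaks, the lists gave a difference of 0.25 ACS genes (exact permutation p = 1), and merged regions, with every peak in them counted, gave 2 sites (exact permutation p = 0.114).

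**Figure D3:**
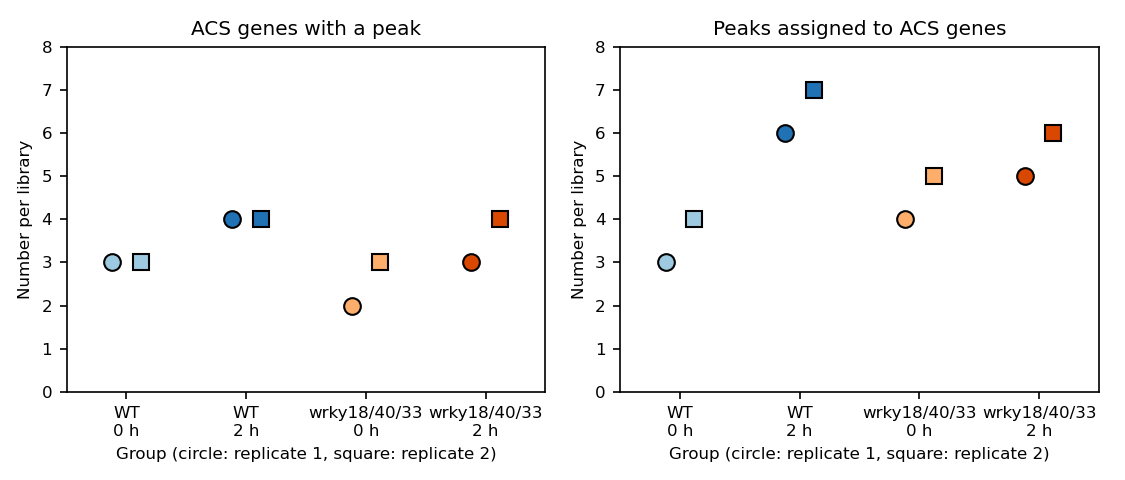
Number of ACS genes with a peak (left) and of peaks assigned to ACS genes (right) per library, by group; circles are replicate 1 and squares replicate 2. WT at 2 h has 4 genes in both libraries and 6 and 7 peaks, and mutant 2 h replicate 2 also has 4 genes and 6 peaks. WT at 0 h has 3 and 4 peaks, and mutant 0 h replicate 1 also has 4.

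Between genotypes, the mutant libraries called 3.00 ± 0.82 ACS genes and the WT libraries 3.5 ± 0.58 (SD, n = 4 each; exact permutation p = 0.657, adjusted p = 0.876). ACS peaks were 5.00 ± 0.82 in the mutant and 5.00 ± 1.83 in WT (exact permutation p = 1). By gene, no ACS gene was called in both libraries of one genotype and neither of the other, at 0 h or at 2 h. Among all genes called in any of the 4 libraries, 1.49% were called in the mutant alone and 0.663% in WT alone at 0 h, and 1.63% and 1.54% at 2 h. Only the ACS6 promoter site among the ACS sites met the rule between genotypes, at 0 h, where 0.763% of regions were called in WT alone. At 2 h no ACS site did, against 1.61% of regions in the mutant alone and 1.7% in WT alone. Alternatives turned this into a call in WT alone at 2 h for the ACS6 promoter site (equal list lengths), the ACS8 site (peaks at or above the list median) and the ACS7 transcript-end site (only peaks assigned to ACS7). No ACS gene or site was gained or lost in the mutant after flg22, where 3.59% and 0.55% of genes and 3.39% and 0.55% of regions were. In WT no ACS gene or site was lost, against 2.17% of genes and 2.11% of regions. Without mutant 0 h replicate 2, ACS2 was called in WT alone at 0 h and gained in the mutant; without mutant 2 h replicate 1, ACS7 was gained in the mutant, and without mutant 2 h replicate 2 it was called in WT alone. ACS7 was also called in WT alone at 2 h with equal list lengths or with peaks at or above the list median. The shares of all genes and regions that meet the rule under these alternatives were not computed. The difference in ACS genes per library, mutant minus WT, was -1.25 with equal list lengths (exact permutation p = 0.286). With peaks at or above the list median it was -1 (exact permutation p = 0.429). Counted as merged regions, the genotype difference was 0.5 sites more in the mutant (exact permutation p = 0.886), which rests on 2 mutant peaks assigned to AT4G26210; with only peaks assigned to ACS genes it was 0 (exact permutation p = 1). The difference between the WT and mutant responses was not tested.

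**Figure D4:**
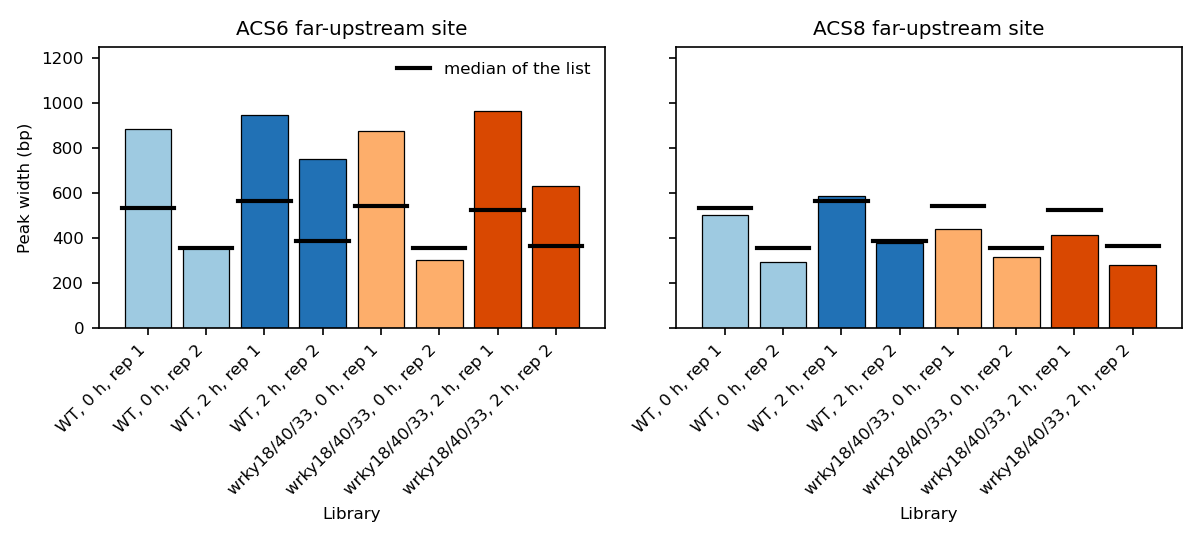
Peak width in bp (bars) at the far-upstream sites of ACS6 and ACS8 in the 8 libraries, with the median width of each list as a black line. At ACS6 the replicate 1 bars (878 to 966 bp) stand above the lines in all groups and the replicate 2 bars do so at 2 h alone (751 and 629 bp); at ACS8 the bars run from 279 to 585 bp, close to or under the lines.

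Beyond the ACS genes, 29 other genes of ethylene synthesis, perception and signalling were examined. In at least 1 library 6 of the 29 were called (20.7%), against 50% of the 8 ACS genes and 12.4% of nuclear protein-coding genes. None of the 5 ethylene receptor genes, the 4 regulators of ACS stability (ETO1, EOL1, EOL2 and XBAT32) or the ACS relatives ACS1, ACS10 and ACS12 had a peak. Of the 4 S-adenosylmethionine synthetase genes, SAM2 was called in WT 2 h replicate 2 alone.

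ACO4 (AT1G05010, listed as EFE by RefSeq), which encodes an ACC oxidase for the last step of ethylene synthesis, was the 1 of 5 ACC oxidase genes with a peak and was called in all 8 libraries. It had peaks at -353 to -551 bp and at -1432 to -1603 bp, the latter annotated as a transcript end. Both were called in all 4 libraries at 2 h and together in 1 library at 0 h, WT replicate 1. The percentile of its strongest peak was 32.2 and 16.5 in untreated WT, 78.4 and 72.3 in treated WT, 7.12 and 17.3 in the untreated mutant, and 71.9 and 62.3 in the treated mutant. All 4 libraries at 2 h stood above all 4 at 0 h in this rank. The 2 h lists were also longer. The shares of all genes with this order, or with more peaks called at 2 h, were not computed, and nothing here was tested.

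Of the 6 signalling genes, EBF2, CTR1 and EIN2 were called. EBF2 (AT5G25350), an F-box protein that targets the ethylene transcription factor EIN3 for degradation, had calls in both treated WT libraries (percentiles 67.5 and 43.2 for the strongest peak), in treated mutant replicate 1 (56.5) and in no untreated library, so it met the rule for a gain in WT, as did 7.85% of genes. CTR1 (AT5G03730), the kinase that keeps ethylene signalling off, was called in 5 libraries at -657 to -768 bp: all 4 of replicate 2 and WT 2 h replicate 1. EIN2 (AT5G03280), a membrane protein that relays the ethylene signal, was called in replicate 1 of WT at both times, with percentiles of 26.2 and 47.9. MPK3 (AT3G45640) had a promoter peak, at -62 to -152 bp, in both untreated WT libraries, in neither treated WT library and in all 4 mutant libraries. Its percentile was 52.7 and 41.3 in untreated WT, 30.4 and 67.3 in the untreated mutant, and 12.7 and 24.3 in the treated mutant. It thus met the rule for a loss in WT, as did 2.17% of genes, and for a call in the mutant alone at 2 h, as did 1.63% of genes. With equal list lengths the latter was lost, since MPK3 then met the rule for a loss in the mutant as well as in WT, and with only peaks at or above the list median neither EBF2 nor MPK3 met the rule. MPK6 had no peak.

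**Figure D5:**
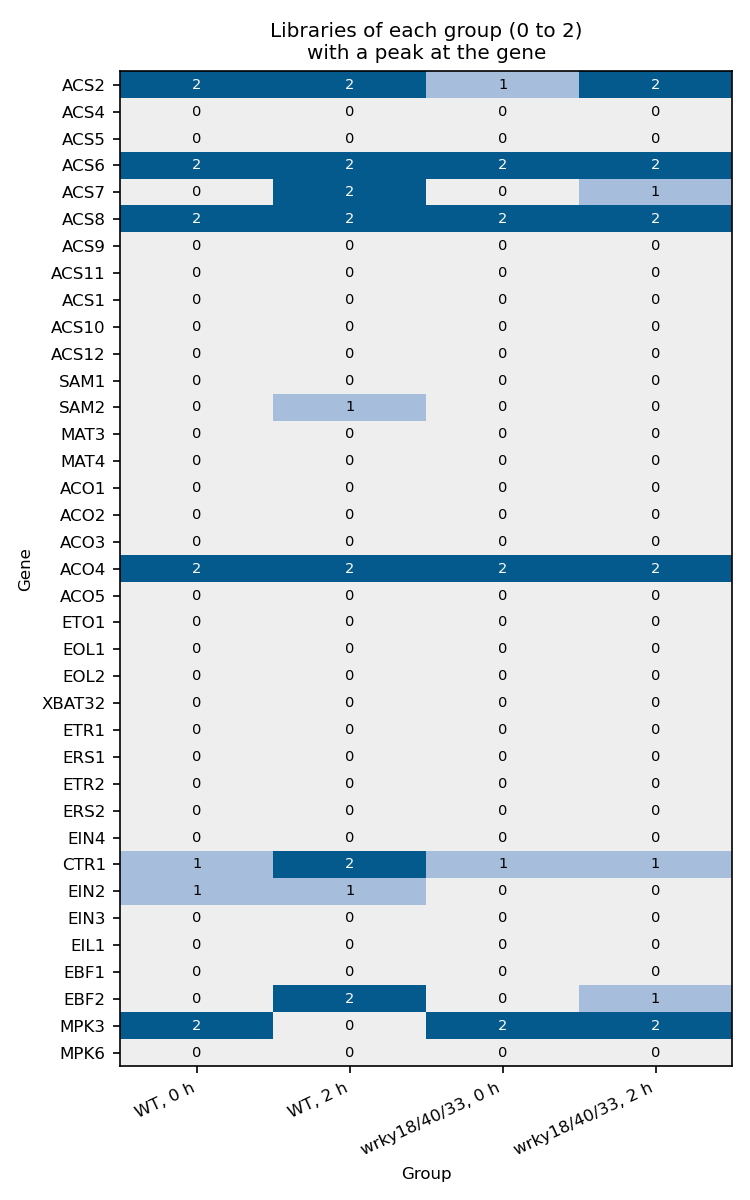
Number of libraries (0 to 2) of each group with a peak at each of the 8 ACS genes and 29 other ethylene genes. ACS6, ACS8 and ACO4 show 2 in every column, ACS7 and EBF2 show 0 in both 0 h columns, and most rows hold only 0.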

How the data were processed

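Chromatin was precipitated with an anti-all-WRKY serum, amplified in linear rounds and sequenced as single-end reads, per the labels' protocols, and 8 input libraries served as controls for peak calling. TAIR10, HOMER, Bowtie2 2.0.5, SAMtools 0.1.18, FastQC 0.11.2 and cutadapt 1.2.1 appear in the submitters' processing notes; the program that called peaks was not given in the sources used here. The authors deposited 1 peak list per library with 3 scores per peak, whose scale is not stated. The ChIP score was used only to rank and filter peaks within a list. Amplification can change the balance between fragments.

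Peaks were taken as ACS peaks by the authors' nearest-promoter gene. Peaks of all lists sharing at least 1 bp were merged into 3886 regions. Calls were compared by the gained or lost rule with no p-value, and counts per library by exact two-sided permutation tests (threshold 0.05). The merging and the rule were run on simulated lists of well separated sites. The simulated gained and lost sites were called always or never in the compared groups. Those lists therefore check the code alone and cannot show how merging acts on wide or nearby peaks. Gene names came from the RefSeq table of TAIR10.1, where all 37 listed genes were found. The TSS in the map of peaks is the deposited centre less the deposited distance. Members and lists were chosen with earlier results of these data known. All 8 members were named, as was each listed gene called in both libraries of a group, and for each member called in 4 or more libraries the 3 genes of most similar calls and percentiles. SAM2 and EIN2 fall outside that rule and were named after their values were seen. The design text ties each replicate number to all 4 conditions, so the numbers pair the samples; the replicate differences in calls correlated between groups at 0.320 to 0.459 over regions. Alternatives were peaks above the list median, equal list lengths (1372), a TSS window (2000 bp upstream to 500 bp downstream), regions for genes, peaks cut to 150 bp, a replicate block, leaving out each library and, added after seeing the data, regions with only the peaks assigned to listed genes. Python 3.11.15, pandas 2.3.3, NumPy 2.4.6, SciPy 1.17.1 and matplotlib 3.10.9 were used.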

Additional observations from a re-analysis of the deposited data

Results flagged for a closer look

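The width of the far-upstream ACS8 peak went opposite ways in the genotypes. From 0 h to 2 h it was wider in both WT pairs, from 504 to 585 bp (replicate 1) and from 295 to 378 bp (replicate 2), a mean difference of 82 bp. In both mutant pairs it was narrower, 440 to 414 bp and 317 to 279 bp, a mean difference of -32 bp. The difference between genotypes was not tested, since 2 pairs against 2 cannot give an exact p below 0.33. Of 496 regions called in all 8 libraries, 4.64% showed the same pattern and 3.63% the opposite one.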

How the results depend on the processing

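The difference of 1 ACS gene per library between 2 h and 0 h was positive under all alternatives run, smallest at 0.25 with equal list lengths (exact permutation p = 1), from 0.75 to 1.25 with each library left out (exact permutation p from 0.0286 to 0.143), and passed the threshold only without mutant 2 h replicate 1; with the replicate block it was 1 (exact p = 0.125). The genotype difference of -0.5 reversed to 0.5 with merged regions in place of genes (exact permutation p = 0.886), through 2 mutant peaks assigned to AT4G26210. It was 0 when only peaks assigned to ACS genes were counted (chosen after seeing the data), and ran from -0.83 to -0.17 with libraries left out. The genotype difference was larger with equal list lengths, at -1.25 (exact permutation p = 0.286), and with peaks at or above the list median, at -1 (exact permutation p = 0.429). ACS genes gained or lost in WT after flg22 numbered 1, and 2 with only peaks at or above the list median (ACS7 and ACS8). The number was 0 with the TSS window and 2 as whole regions, with or without peaks of other genes. As regions cut to 150 bp it was 1 (the ACS6 promoter site). Leaving out a library kept 1. For the mutant after flg22 the number was 0, and between 0 and 1 with libraries left out (ACS2 without 0 h replicate 2, ACS7 without 2 h replicate 1). The replicate block instead counts ACS genes whose call differed within a same-numbered pair, which is not the gained or lost rule. That count averaged 1 per pair for the mutant after flg22. For the genotypes at 0 h the number gained or lost was 0, but 1 as regions, whole, cut to 150 bp or with assigned peaks only (the ACS6 promoter site). It was 0 to 1 with libraries left out (ACS2 without mutant 0 h replicate 2), and the block count was 0.5 per pair. At 2 h the number gained or lost was 0, but 2 with peaks at or above the list median (ACS7 and ACS8) and 1 with equal list lengths (ACS7). It was 1 as regions with assigned peaks only (ACS7 transcript-end) and 0 to 1 with libraries left out (ACS7 without mutant 2 h replicate 2). The block count was 0.5 per pair. ACS genes called in all 8 libraries numbered 2, and 1 (ACS6) with peaks at or above the list median, with equal list lengths and with the TSS window; without mutant 0 h replicate 1 ACS2 joined them (2 to 3 with libraries left out). Pathway genes gained or lost in any comparison numbered 2 (EBF2 and MPK3), and 1 (ACO4) with peaks at or above the list median. As regions cut to 150 bp they numbered 3, with ACO4 gained in the mutant. With libraries left out they numbered 2 to 4 (CTR1 and EIN2 joined without WT 0 h replicate 2). Stricter filters leave fewer peaks by construction, and the shares of all genes and regions that meet the rule under the alternatives were not computed. The cause of the other shifts was not tested.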

Other observations

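Among genes called in the same libraries, those closest to ACS6 in the percentile of their strongest peak over 8 libraries were GGT1 (AT4G39640), AT3G19010 and AT5G38310, at mean absolute differences of 3.54, 4.14 and 4.91 percentile points, out of 482 other genes called in all 8. For ACS8 the closest of the same 482 were CLE14 (AT1G63245), AT3G29000 and AT3G50695, at 16.5, 17.0 and 18.1 points. For ACS2, over 7 libraries and 29 genes with the same calls, they were AT5G51590, MTM2 (AT5G04540) and GAD (AT5G17330), at 20.1, 24.9 and 27.0 points. All values of a library share its list, and no test was made.

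The deposited tables also give an ef score, which equalled the ChIP score in 12.8% to 52.0% of the peaks of a list. At the ACS2 exon site the scores were equal in 3 of 4 libraries, at 10.1, 13.4 and 11.2, and 10.3 against 10.4 in WT 0 h replicate 2. At the ACS2 upstream site the ef score was 3.10, 4.14 and 2.63 beside ChIP scores of 10.1, 19.3 and 12.2. No library called both sites, so these scores come from different lists and were not compared. No source used here says what the ef score measures.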
